A study of Homo sapiens with 12 samples.

Results

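The 34 genes described here are ATF4 and genes tied to it in the stress response of cells that run short of amino acids. They were chosen by gene name, and each name was found once in both count tables, which list 42342 features in MP38 and 44938 in 92.1. MP38 and 92.1 are human uveal melanoma cell lines. Cells of each were treated for 72 hours with VE-822, also called berzosertib, which blocks the replication stress kinase ATR, or with its solvent DMSO, with 3 libraries per line and treatment and 12 in all. The dose is not given, only the aim of about 40% viability in either line, so dose and line cannot be told apart. Nothing in the labels ties replicate libraries to separate cultures, and the p-values then reflect spread between samples that may be technical. The list was put together with earlier results of these data known, among them that SLC7A11 and ASNS had the lowest fitted fold changes in 92.1 and that DMSO library 3 of 92.1 set their size. That library is therefore shown apart, and its difference from DMSO libraries 1 and 2, like the response of 92.1, is given as a description.

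ATF4 is a transcription factor made from an mRNA whose translation goes up when the initiation factor eIF2 is phosphorylated. The kinase EIF2AK4 does this when uncharged tRNAs build up, EIF2AK3 when proteins misfold in the endoplasmic reticulum, EIF2AK2 on double-stranded RNA and EIF2AK1 on haem shortage or mitochondrial stress. ATF4 pairs with C/EBP proteins and switches on amino acid transporters, enzymes of amino acid synthesis and tRNA synthetases, as well as DDIT3 and PPP1R15A, of which the second reverses eIF2 phosphorylation. Since ATF4 is set in large part by translation, the level of its mRNA is not the level of its protein, which was not measured here.

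Total counts were 54415628 to 63638976 per library in MP38 and 112374503 to 137664800 in 92.1. The members took 0.931% to 0.980% of all counts in VE-822 and 0.759% to 0.867% in DMSO in MP38. In 92.1 they took 0.325% to 0.332% in VE-822, 0.959% in DMSO library 3, and 0.374% and 0.369% in DMSO libraries 1 and 2. The melanocyte markers MITF, PMEL, MLANA, TYR, DCT and SOX10 summed to 5162 to 5395 CPM (counts at an equalised library size) in VE-822 and 4452 to 4609 CPM in DMSO in MP38, and to 8241 to 8558 CPM in VE-822 and 7524 to 7664 CPM in DMSO in 92.1. PMEL was the largest part of these sums, and the 6 genes did not share 1 direction. In MP38 the log2 fold changes with VE-822 were 0.64 for PMEL, 1.30 for MLANA, -0.26 for MITF, -0.52 for DCT, -0.26 for SOX10 and -0.10 for TYR. In 92.1, with all 6 libraries, they were 0.10, 0.22, -0.42, -1.57, 0.06 and 0.06 in the same order. Leukocyte, endothelial and epithelial marker sums were at most 0.517, 3.77 and 0.883 CPM in any library. The mitochondrial share of counts in DMSO library 3 of 92.1, 9.32%, lay close to the 9.11% and 9.27% of DMSO libraries 1 and 2.

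The element that ATF4 and C/EBP proteins bind together was searched as TGATGNAA on either strand, the other strand reading TTNCATCA, in RefSeq windows from 250 bases before to 50 after each transcript start (GRCh38.p14). Of the members, 29 were in that table, with SLC7A11, SHMT2, PSPH, NUPR1 and ALDH1L2 not among them. A match stood in 11 of the 29, or 37.9%, against 4.46% of all 27305 genes in the table, and in 11 of their 47 windows, against 3.62% of all windows. Since the members were listed for their ties to ATF4, these shares are a description and carry no test. The 11 were ATF3, CEBPG, CHAC1, SLC7A1, SLC3A2, SLC1A4, SLC1A5, ASNS, AARS1, CARS1 and GARS1. Upstream stretches of 4 of them are printed, since in MP38 AARS1 and CEBPG rose with VE-822 while ASNS and CHAC1 did not pass the test, with the match in capitals, 5′ to 3′ on the gene's own strand. They are ASNS at chr7:97872429-97872516 on the minus strand, CHAC1 at chr15:40953222-40953309 on the plus strand, AARS1 at chr16:70289646-70289733 on the minus strand and CEBPG at chr19:33374031-33374112 on the plus strand.
ASNS: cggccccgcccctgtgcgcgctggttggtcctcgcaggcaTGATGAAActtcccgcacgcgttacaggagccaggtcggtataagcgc
CHAC1: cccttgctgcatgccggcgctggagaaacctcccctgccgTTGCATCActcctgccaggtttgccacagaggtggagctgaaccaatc
AARS1: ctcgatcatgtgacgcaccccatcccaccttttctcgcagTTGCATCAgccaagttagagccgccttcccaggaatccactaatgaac
CEBPG: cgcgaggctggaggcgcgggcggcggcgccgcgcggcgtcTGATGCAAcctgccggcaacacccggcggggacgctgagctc
Genes can have several annotated starts, and positions count from the start of the window that holds the match. The first base of the match lies 68 bases before that start in ASNS, 209 in CHAC1, 187 in AARS1 and 42 in CEBPG.

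In MP38, VE-822 was accompanied by higher mRNA of 6 of the 7 transcription factors and antagonists and of the 4 tRNA synthetases on the list, while the cystine importer, asparagine synthetase and the first enzymes of serine synthesis showed no rise that passed the test. Of 33 members tested, 18 rose and 4 fell at an adjusted p under 0.05 in edgeR's quasi-likelihood test, the threshold used throughout, and 11 did not pass it. Over all 21415 genes tested, 52.3% passed, 26.9% higher and 25.4% lower. The median log2 fold change was 0.20 over the members and -0.01 over all genes. The CPM of the 2 groups did not overlap in 19 members that were higher and 2 that were lower, against 29.7% and 29.0% of all genes. Scaled by library size only, CEBPG at 0.13 was no longer past the threshold, and PHGDH at -0.11 and XPOT at -0.10 were lower.

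Transcription factors and their antagonists moved most in MP38, with 6 of 7 higher. ATF4 mRNA itself (chr22:39519695-39522683) was 895, 911 and 972 CPM in VE-822 and 939, 893 and 833 CPM in DMSO. These ranges overlap, and the log2 fold change of 0.06 ± 0.0464 (SE) was not past the threshold (edgeR adjusted p = 0.303). DDIT3, a C/EBP-related factor linked to cell death under lasting stress, had 138, 140 and 170 CPM in VE-822 and 77.7, 73.5 and 50.8 CPM in DMSO. Every VE-822 library was above every DMSO library, and DDIT3 rose by 1.15 ± 0.102 (log2, SE; edgeR adjusted p = 7.32e-09).

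NUPR1, a small chromatin protein induced by stress, had 125, 132 and 159 CPM in VE-822 and 83.0, 76.8 and 69.6 CPM in DMSO, a rise of 0.86 ± 0.0685 on the log2 scale. TRIB3, a pseudokinase that dampens ATF4 activity, had 326, 328 and 395 CPM in VE-822 against 238, 240 and 184 CPM in DMSO, with a log2 fold change of 0.67 ± 0.0785. ATF3, a factor induced by many stresses, had 37.3, 36.3 and 38.6 CPM in VE-822 against 25.9, 25.8 and 22.1 CPM in DMSO. For all 3 genes the groups were apart. CEBPB and CEBPG, partners of ATF4, rose by 0.63 ± 0.0717 and 0.16 ± 0.0515. The call of CEBPG was lost without DMSO library 3 (log2 fold change 0.08; edgeR adjusted p = 0.097).

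Among the feedback and signalling members, PPP1R15A (chr19:48872421-48876058), which directs a phosphatase to eIF2, had the largest fold change of the list in MP38. It had 391, 396 and 512 CPM in VE-822 and 157, 159 and 123 CPM in DMSO, so the lowest VE-822 library was far above the highest DMSO library. The log2 fold change was 1.57 ± 0.0887 (SE; edgeR adjusted p = 8.18e-12). CHAC1, which breaks down glutathione, was 44.5, 45.0 and 45.2 CPM in VE-822 and 43.9, 45.7 and 32.5 CPM in DMSO. Only DMSO library 3 lay below the rest, and the gene was not past the threshold (log2 fold change 0.14 ± 0.0793), though it was without DMSO library 2 (0.23). DDIT4, an inhibitor of the growth kinase complex mTORC1, was 299, 301 and 322 CPM in VE-822 and 357, 360 and 304 CPM in DMSO. These groups overlap. Its log2 fold change of -0.15 ± 0.0524 was past the threshold, but not without DMSO library 1 (-0.12), DMSO library 2 (-0.11), VE-822 library 1 (-0.13) or VE-822 library 2 (-0.14), and it was -0.23 without DMSO library 3. STC2, a secreted glycoprotein, was lower in every VE-822 library, at 30.9, 31.3 and 32.2 CPM against 40.4, 38.1 and 34.3 CPM in DMSO (log2 fold change -0.26 ± 0.0525). VLDLR, a lipoprotein receptor, had 0.08 ± 0.0584 and was not past the threshold.

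**Figure D1:**
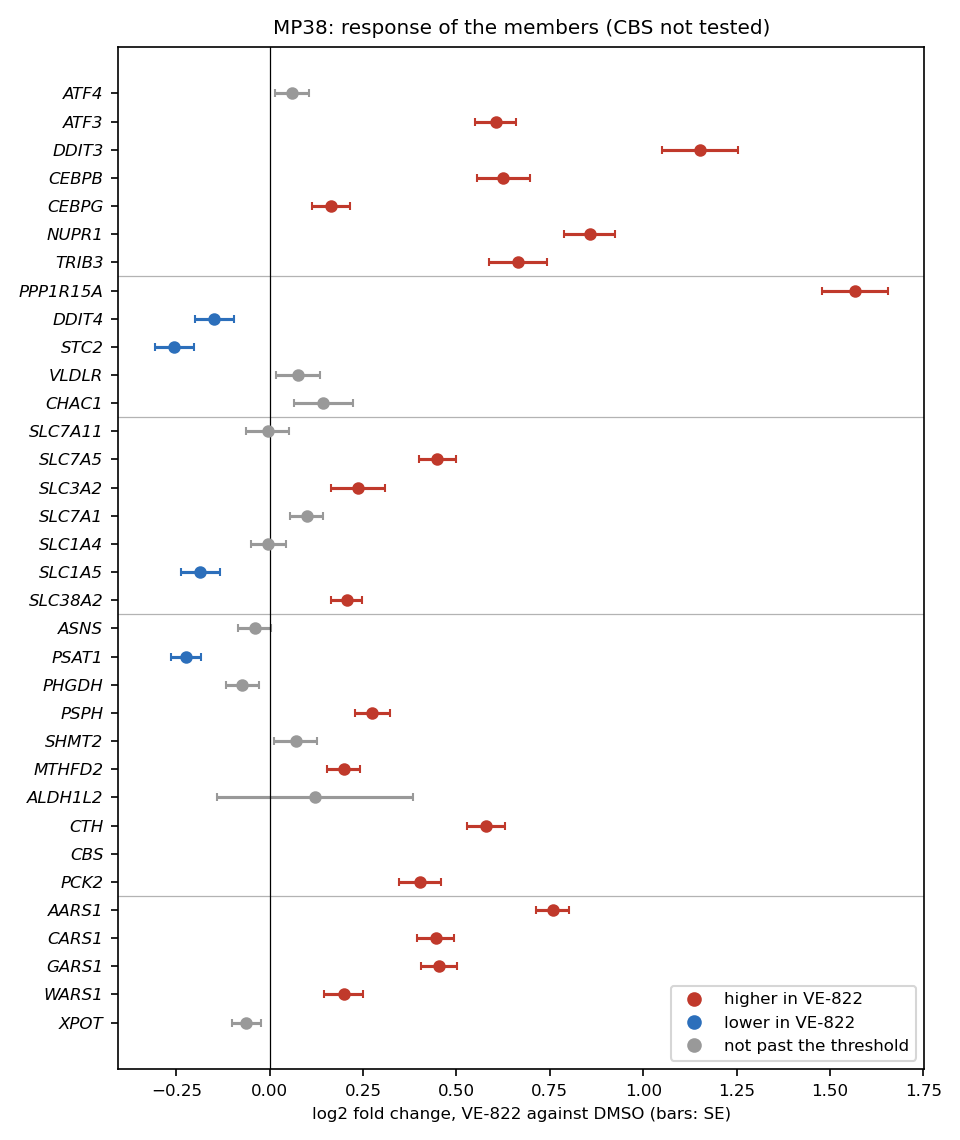
Log2 fold change of each member in MP38, VE-822 against DMSO (x axis), with SE bars, by role (grey lines); 3 libraries per group. PPP1R15A at 1.57 and DDIT3 at 1.15 lie farthest to the right, and ATF4, SLC7A11 and ASNS lie near 0.

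The amino acid transporters of MP38 split, with 3 of 7 that rose, 1 that fell and 3 that did not pass the threshold. SLC7A11 (chr4:138164097-138242349), the cystine and glutamate exchanger, was 156, 151 and 142 CPM in VE-822 and 160, 160 and 132 CPM in DMSO, groups that overlap (log2 fold change -0.01 ± 0.0575; edgeR adjusted p = 0.944). Its antisense gene SLC7A11-AS1 is listed too, and without a stated use of strand their reads cannot be told apart. SLC7A5, which imports leucine and other large neutral amino acids, averaged 635 ± 29.6 CPM in VE-822 and 465 ± 33.3 CPM in DMSO (SD, n = 3 each) and rose by 0.45 ± 0.0486 on the log2 scale. SLC3A2, the heavy chain shared by SLC7A5 and SLC7A11, rose by 0.24 ± 0.0727 (not past the threshold in DESeq2, adjusted p = 0.144). Without DMSO library 3 its log2 fold change was 0.11, still past the threshold. The glutamine carrier SLC38A2 rose by 0.21 ± 0.0408. SLC1A5, a carrier of neutral amino acids including glutamine, fell, with a log2 fold change of -0.19 ± 0.0519. Its groups overlap, with 275 CPM in VE-822 library 3 and 269 CPM in DMSO library 3. SLC1A4, its relative, was 149, 151 and 145 CPM in VE-822 and 155, 157 and 135 CPM in DMSO. These groups overlap, and its log2 fold change of -0.0035 ± 0.0478 was not past the threshold. SLC7A1, the importer of arginine and lysine, had 0.10 ± 0.0447 and was not past it (edgeR adjusted p = 0.0705).

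Enzymes of amino acid synthesis and of the mitochondrial folate pathway held 4 members that rose in MP38, 1 that fell and 4 that did not pass, with CBS not tested. ASNS (chr7:97851677-97872542), which makes asparagine, was 30.3, 31.1 and 31.2 CPM in VE-822 and 32.5, 31.9 and 30.9 CPM in DMSO. The groups overlap, and the log2 fold change was -0.04 ± 0.0437 (edgeR adjusted p = 0.469). A pseudogene, ASNSP1, took 1123 to 1328 counts in VE-822 and 1021 to 1289 in DMSO in MP38, so reads may be split between them. Of the enzymes that make serine in 3 steps, the first, PHGDH, averaged 587 ± 33.6 CPM in VE-822 and 617 ± 20.8 CPM in DMSO and was not past the threshold. It was past it without DMSO library 3 (log2 fold change -0.11) and without VE-822 library 3 (-0.12). The second, PSAT1, was 410, 410 and 429 CPM in VE-822 against 503, 491 and 464 CPM in DMSO and fell (log2 fold change -0.22 ± 0.0403). PSPH, the last, was 41.5, 45.8 and 44.8 CPM in VE-822 against 37.1, 37.2 and 35.0 CPM in DMSO and rose by 0.27 ± 0.0461. The serine pathway thus moved in both directions.

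CTH, which forms cysteine from cystathionine, was 37.8, 37.5 and 38.3 CPM in VE-822 and 26.2, 26.6 and 23.2 CPM in DMSO. All VE-822 libraries were higher, by 0.58 ± 0.0504 on the log2 scale (edgeR adjusted p = 5.7e-09). PCK2, the mitochondrial enzyme that makes phosphoenolpyruvate, was 257, 262 and 307 CPM in VE-822 against 216, 214 and 194 CPM in DMSO and rose by 0.40 ± 0.0557. MTHFD2, a mitochondrial folate enzyme, rose by 0.20 ± 0.0443, while SHMT2, which splits serine to glycine there, had 0.07 ± 0.0583 and was not past the threshold. ALDH1L2 was 0.955, 0.791 and 0.494 CPM in VE-822 against 0.868, 0.628 and 0.560 CPM in DMSO, a level at which the fitted log2 difference, 0.12 ± 0.262, was not detectable. CBS had at most 4 counts in VE-822 libraries and 8 in DMSO libraries and did not pass the filter on low counts. The copy of CBS on the same build, CBSL, took 1180 to 1402 counts in VE-822 and 1383 to 1431 in DMSO in MP38, so the level of CBS in this line cannot be read from the row of CBS.

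The tRNA synthetases rose together in MP38, with all 4 on the list past the threshold. AARS1, which charges alanine tRNA, averaged 445 ± 19.1 CPM in VE-822 and 263 ± 12.6 CPM in DMSO (SD, n = 3 each) and rose by 0.76 ± 0.0433 on the log2 scale (edgeR adjusted p = 9.16e-12). GARS1, CARS1 and WARS1, for glycine, cysteine and tryptophan, rose by 0.45 ± 0.0489, 0.44 ± 0.0501 and 0.20 ± 0.0513. XPOT, which carries tRNAs out of the nucleus, had a log2 fold change of -0.06 ± 0.0393 and was not past the threshold, though it was without DMSO library 3 (-0.10). Of 16 other cytosolic synthetases, 5 rose, 6 fell and 5 did not pass, with a median log2 fold change of -0.02. HARS1, for histidine, rose by 0.28 ± 0.0424.

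The replicates of MP38 were not level for these genes. DMSO library 3 was the lowest of the 3 DMSO libraries in 32 of 33 members, as it was in 36.3% of all genes, and VE-822 library 3 the highest of its group in 26 of 33, against 39.1% of all genes. When DMSO library 3 was left out, 17 members were higher and 6 lower, and the median log2 fold change of the members was 0.11 in place of 0.20. The mitochondrial share of counts in MP38 was 8.50% to 8.70% in VE-822 and 6.82% to 7.26% in DMSO, and its part in the results was not tested.

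In 92.1, DMSO library 3 held far more mRNA of these genes than any other library of the line. It was above all 5 other libraries in 33 of 34 members, the exception being PHGDH, against 21.1% of all genes. It had at least 2 times the mean of DMSO libraries 1 and 2 in 27 members, against 3.90% of all genes, and at least 4 times in 14, against 0.501%. It had at most 0.5 times that mean in none, against 2.46%. The median ratio was 3.54 over the members and 1.01 over all genes. This is the difference that brought genes onto the list, so it is a description and carries no test. The member just inside 4 times was STC2 at 4.10 and the one just outside was MTHFD2 at 3.70.

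The largest ratio was that of DDIT4, with 104 CPM in DMSO library 3 against 4.07 and 3.53 CPM in DMSO libraries 1 and 2, a ratio of 27.5 that ranked 21 of 22943 genes. SLC7A11 had 253 CPM against 13.03 and 12.9 CPM, a ratio of 19.5, and ASNS 35.2 CPM against 2.60 and 1.81 CPM, a ratio of 16.0. CTH followed with 98.5 CPM against 9.83 and 9.62 CPM. These 4 were the members above a ratio of 10.

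ALDH1L2 had 10.7 CPM in DMSO library 3 against 1.22 and 1.24 CPM in DMSO libraries 1 and 2, and SLC1A4 19.0 CPM against 2.12 and 2.27 CPM. PCK2 had 180 CPM against 22.2 and 21.9 CPM, and CHAC1 188 CPM against 27.8 and 27.2 CPM. Among the transcription factors and their antagonists, NUPR1 was at 46.7 CPM against 6.59 and 6.70 CPM, ATF3 at 37.9 CPM against 6.39 and 5.95 CPM, and TRIB3 at 120 CPM against 22.7 and 23.8 CPM. PSAT1 had 702 CPM against 138 and 134 CPM, PSPH 75.0 CPM against 16.2 and 17.5 CPM, and STC2 76.4 CPM against 18.6 and 18.7 CPM. In each of these genes DMSO libraries 1 and 2 lay close together.

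ATF4 mRNA was 1159 CPM in DMSO library 3 against 449 and 448 CPM in DMSO libraries 1 and 2, a ratio of 2.58. DDIT3 had 23.5 CPM against 6.76 and 6.79 CPM, a ratio of 3.47. The smallest ratios above all other libraries were 1.61 in SLC1A5 and PPP1R15A, 1.62 in SLC3A2 and 1.64 in SLC38A2. By role, the median ratio was 4.81 for the synthesis enzymes, 4.10 for the feedback group, 3.60 for the transcription factors, 2.96 for tRNA synthetases with XPOT, and 2.39 for the transporters. PHGDH, with 51 counts in DMSO library 3 and 23 and 44 in DMSO libraries 1 and 2, stayed near the floor of detection in this line.

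**Figure D2:**
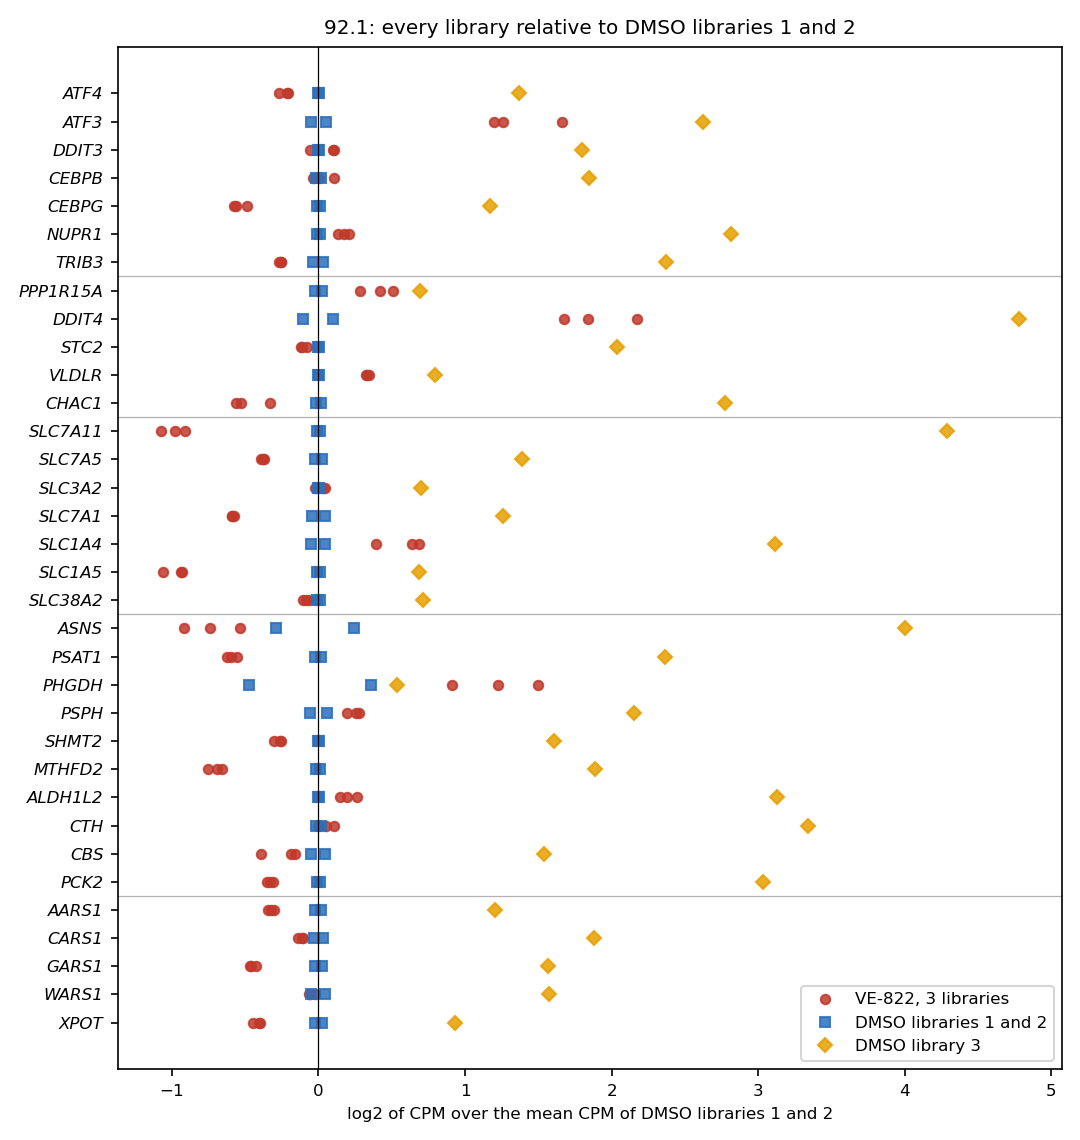
Log2 of each 92.1 library's CPM over the mean of DMSO libraries 1 and 2 (x axis), by member and role. DMSO library 3 (diamonds) lies right of all other libraries in 33 of 34 members, with DDIT4 at a ratio of 27.5, while the VE-822 libraries lie on both sides of 0.

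Other genes of the pathway separated in DMSO library 3, where 3.90% of all genes had at least 2 times the mean of DMSO libraries 1 and 2. Of 11 further ATF4-linked genes tested, 5 reached 2 times. Among them were SESN2, a stress protein that restrains mTORC1, with a ratio of 6.86, and JDP2, a repressor of transcription, with 4.45. Of the 16 other cytosolic synthetases 4 reached 2 times, with a median ratio of 1.29, led by SARS1 for serine at 2.99. Of 17 genes on an endoplasmic reticulum chaperone list 2 did, XBP1 at 2.95 and HERPUD1 at 2.62, and the median ratio was 0.865. The list also holds genes that are not chaperones, these 2 among them. The lumenal chaperone HSPA5 had a ratio of 0.764. None of 8 NRF2 antioxidant genes tested reached 2 times, and their ratios were 0.837 to 1.26. None of 11 genes for the eIF2 kinases, eIF2B and PPP1R15B did, with ratios of 0.749 to 1.15. SLC7A11 is also a known target of NRF2, and the cause of its ratio was not tested.

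**Figure D3:**
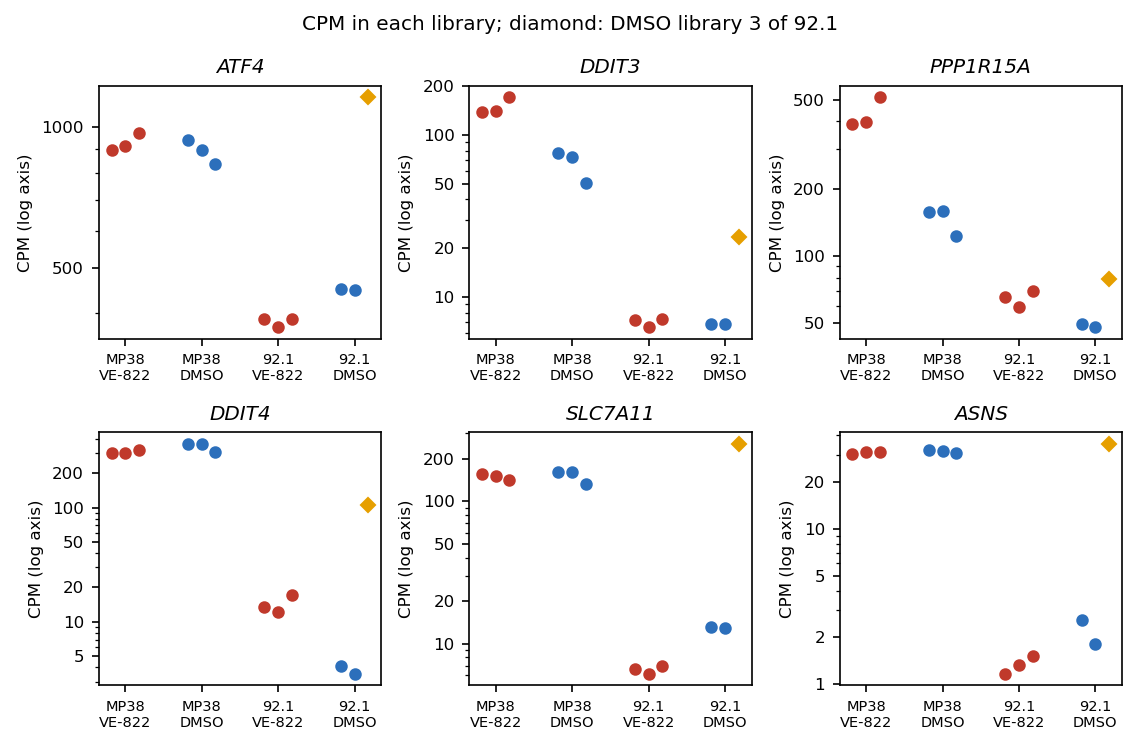
CPM (log axis) of 6 members in each library of both lines, VE-822 in red and DMSO in blue, with DMSO library 3 of 92.1 as a diamond. SLC7A11 at 253 CPM and ASNS at 35.2 CPM in that library lie above all MP38 libraries, and DDIT3 at 23.5 CPM lies below them. For ASNS the highest MP38 library had 32.5 CPM, and reads that the pseudogene ASNSP1 may have taken are not included.

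The response of 92.1 to VE-822 depends on whether DMSO library 3 is counted as a control. With all 6 libraries, 12 members were lower, 1 was higher and 21 did not pass, against 19.6% of all genes lower, 20.3% higher and 39.9% in either direction. Scaled by library size only, 9 members were lower and 1 higher, and all genes split into 3534 lower and 5684 higher in place of 4498 lower and 4658 higher. With that library left out, 20 members were lower, 7 were higher and 7 did not pass, against 29.0% of all genes lower, 26.8% higher and 55.7% in either direction. The median log2 fold change of the members was -1.04 with that library and -0.21 without it, and that of all genes 0.03 in both fits. Leaving out VE-822 library 1, 2 or 3 left 1 member lower in each case. Leaving out DMSO library 1 or 2 gave 20 and 23 lower. Since the list was chosen with this contrast known, these counts are descriptions.

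Among transcription factors of 92.1, ATF4 mRNA was 388, 373 and 387 CPM in VE-822, below the 449, 448 and 1159 CPM of DMSO, with a log2 fold change of -0.84 ± 0.328 (SE) in all libraries and -0.26 ± 0.0300 without DMSO library 3. ATF3 had 14.8, 14.2 and 19.5 CPM in VE-822, which lies above DMSO libraries 1 and 2 and below DMSO library 3. Its log2 fold change was -0.06 ± 0.625 with that library and 1.36 ± 0.109 without it. DDIT3, the member of this group with the largest fold change in MP38, had 7.24, 6.51 and 7.27 CPM in VE-822, overlapping DMSO libraries 1 and 2, and its log2 fold change without DMSO library 3 was 0.02 ± 0.0700. NUPR1 had 7.51, 7.69 and 7.29 CPM and CEBPB 12.2, 11.8 and 13.1 CPM in VE-822, with log2 fold changes without DMSO library 3 of 0.14 ± 0.0636 and -0.0054 ± 0.0570. TRIB3 had 19.3, 19.5 and 19.4 CPM in VE-822 and -0.29 ± 0.0430, and CEBPG had -0.57 ± 0.0363.

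In the feedback group of 92.1, DDIT4 was 13.6, 12.1 and 17.1 CPM in VE-822, below DMSO library 3 and above DMSO libraries 1 and 2. Its log2 fold change was -1.39 ± 1.09 with DMSO library 3 and 1.88 ± 0.12 without it. PPP1R15A was 65.4, 59.4 and 69.6 CPM in VE-822 against 49.6, 48.1 and 78.8 CPM in DMSO, and had a log2 fold change of 0.14 ± 0.172 with DMSO library 3 and 0.38 ± 0.0507 without it. CHAC1 had 19.0, 18.6 and 21.9 CPM in VE-822, below all DMSO libraries, and STC2 17.6, 17.2 and 17.2 CPM, also below them. Without DMSO library 3 their log2 fold changes were -0.50 ± 0.0580 and -0.14 ± 0.0443. VLDLR had 0.30 ± 0.0286.

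Transporter mRNAs of 92.1 were mostly lower in VE-822 also when set against DMSO libraries 1 and 2 alone, with 5 of 7 lower and 1 higher. SLC7A11 was 6.58, 6.16 and 6.91 CPM in VE-822, below every DMSO library, with a log2 fold change of -3.83 ± 1.11 in all libraries and -1.02 ± 0.0618 without DMSO library 3. SLC1A5 was 121, 120 and 111 CPM in VE-822 against 232, 229 and 372 CPM in DMSO, and its log2 fold change was -1.24 ± 0.171 and -1.01 ± 0.0336 in the same 2 fits. SLC1A4 had 2.88, 3.41 and 3.53 CPM in VE-822 and a log2 fold change of -1.26 ± 0.749 with DMSO library 3 and 0.55 ± 0.110 without it. SLC7A1 and SLC7A5 had -0.62 ± 0.0311 and -0.41 ± 0.0288 without it. SLC38A2 had -0.12 ± 0.0297 and SLC3A2 -0.02 ± 0.0293, the second not past the threshold.

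Of the synthesis enzymes of 92.1, ASNS had 1.17, 1.32 and 1.52 CPM in VE-822, below all DMSO libraries, with a log2 fold change of -3.31 ± 1.04 in all libraries and -0.75 ± 0.156 without DMSO library 3. PSAT1 had 92.7, 89.9 and 88.1 CPM in VE-822 and -0.62 ± 0.0302 without that library, and MTHFD2 -0.73 ± 0.0319. SHMT2 had -0.31 ± 0.0283 and CBS, which makes cystathionine and is uncertain for its copy, -0.27 ± 0.0585. The pseudogene ASNSP1 had at most 2 counts in VE-822 and in DMSO libraries 1 and 2, and 120 in DMSO library 3. CTH had 10.5, 9.70 and 10.1 CPM in VE-822, around DMSO libraries 1 and 2, and 0.02 ± 0.0574. PCK2 had 17.2, 17.8 and 17.5 CPM and -0.36 ± 0.0436, PSPH 19.2, 20.1 and 20.4 CPM and 0.21 ± 0.0499, and ALDH1L2 1.36, 1.41 and 1.47 CPM and 0.17 ± 0.136. PHGDH had 95, 115 and 65 counts in VE-822 against 23, 44 and 51 in DMSO, which is 0.550 to 0.826 CPM against 0.210 to 0.424 CPM. Among the synthetases and XPOT, 4 of 5 were lower without DMSO library 3, at -0.15 for CARS1 to -0.48 for GARS1, and WARS1 at -0.08 was not past the threshold.

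The responses of the lines are set side by side here with DMSO library 3 of 92.1 left out. Over all genes tested in each line, 26.9% were higher and 25.4% lower in MP38, and 26.8% higher and 29.0% lower in 92.1. The share of all genes with each pair of calls was not counted, so the counts that follow describe the members only. Of the 18 members higher in MP38, 9 were lower in 92.1, namely CEBPG, TRIB3, SLC7A5, SLC38A2, MTHFD2, PCK2, AARS1, CARS1 and GARS1. ATF3, PPP1R15A and PSPH were higher in both lines, and 6 were not past the threshold in 92.1. STC2, SLC1A5 and PSAT1 were lower in both. DDIT4 was higher in 92.1 and lower in MP38. ATF4, CHAC1, SLC7A11, SLC7A1, ASNS, SHMT2 and XPOT were lower in 92.1 and not past the threshold in MP38. VLDLR, SLC1A4 and PHGDH were higher in 92.1 and not past it in MP38, and ALDH1L2 was past it in neither line.

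**Figure D4:**
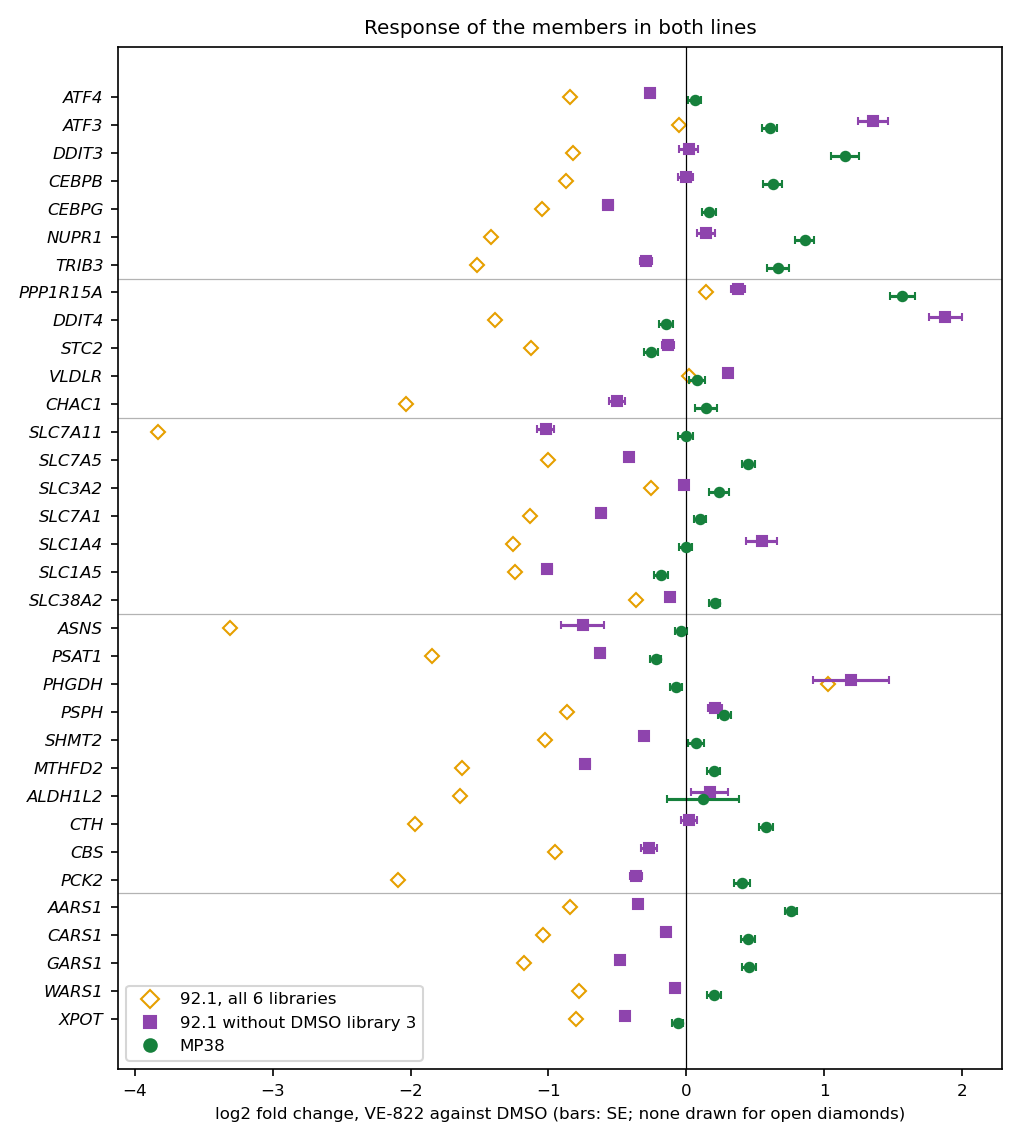
Log2 fold change of each member, VE-822 against DMSO (x axis), in 92.1 with all 6 libraries (open diamonds), in 92.1 without DMSO library 3 (squares, SE bars) and in MP38 (circles, SE bars). DDIT4 lies at -1.39 with that library and 1.88 without it, and AARS1 at -0.35 in 92.1 without it and 0.76 in MP38.

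The difference itself, the response of 92.1 minus that of MP38, was tested in 1 fit of all 12 libraries. There 22 members were lower, 1 was higher and 11 did not pass, with 18.8% of all 24958 genes lower, 22.1% higher and 40.9% in either direction. Leaving out DMSO library 3 of 92.1 gave 25 lower and 5 higher, with 24.8% and 24.3% of all genes, 49.1% in all. The median difference over the members was -1.31 with that library and -0.56 without it, beside 0.11 and 0.08 over all genes. AARS1 differed by -1.57 ± 0.307 (SE) with DMSO library 3 and -1.10 ± 0.0560 without it, PPP1R15A by -1.40 ± 0.221 and -1.18 ± 0.122, and DDIT3 by -1.94 ± 0.473 and -1.12 ± 0.164. DDIT4 differed by -1.21 ± 1.11 with that library, which was not past the threshold, and by 2.04 ± 0.132 without it. The fit holds the 92.1 contrast, so the counts are again descriptions.

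The lines also differed in how much of these mRNAs they held in DMSO, compared per transcript length as FPKM (counts scaled for length and library total) and without a test. DMSO libraries 1 and 2 of 92.1 lay below all 3 DMSO libraries of MP38 in 29 of 34 members and above them in VLDLR, SLC3A2, SLC38A2, ALDH1L2 and CBS, the last of which is uncertain for the copy named above. The share of all genes placed in these ways was not counted, so the counts do not set the members apart from other genes. PHGDH was 0.022 to 0.045 FPKM in the DMSO libraries of 92.1 and 65.4 to 69.9 FPKM in those of MP38. DDIT4 was 1.63 and 1.87 FPKM in DMSO libraries 1 and 2 of 92.1, and 145 to 173 FPKM in MP38. SLC1A4 was 0.297 and 0.320 FPKM, and 19.6 to 23.0 FPKM in MP38.

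DMSO library 3 of 92.1 was above the MP38 DMSO range in 21 members, inside it in SHMT2 and below it in 12. Here too the share of all genes was not counted. CHAC1 was 89.4 FPKM in that library and 16.0 to 22.7 FPKM in MP38 DMSO, CTH 39.7 FPKM and 9.73 to 11.2 FPKM, and ATF4 431 FPKM and 322 to 363 FPKM. DDIT3, at 17.5 FPKM, and TRIB3, at 35.5 FPKM, lay below their MP38 DMSO ranges of 39.2 to 60.1 FPKM and 56.4 to 74.2 FPKM. ATF4 was the most abundant member per length in the DMSO libraries of MP38, at a mean of 344 FPKM, followed by PSAT1 at 223 FPKM and DDIT4 at 163 FPKM, whose ranges do not overlap.

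The other gene lists in MP38 did not share 1 direction, beside 26.9% of all genes higher and 25.4% lower. The median log2 fold change was 0.12 for the further ATF4-linked genes and 0.19 for the NRF2 antioxidant genes. It was -0.21 for the endoplasmic reticulum list and -0.10 for the eIF2 kinase, eIF2B and phosphatase genes. Of 12 further ATF4-linked genes 6 rose, 3 fell and 3 did not pass. GADD45A, a growth arrest gene that p53 also induces, rose by 2.08 ± 0.0840 (log2, SE) and the secreted factor GDF15, likewise a p53 target, by 1.56 ± 0.0948, while ALDH18A1, which starts proline synthesis, and the glycine carrier SLC6A9 had -0.51 ± 0.0350 and -0.65 ± 0.0574. Of the 17 genes on the endoplasmic reticulum chaperone list 9 fell, 3 rose and 5 did not pass, with CRELD2 at -0.73 ± 0.106, MANF at -0.70 ± 0.115 and SEL1L at -0.46 ± 0.0447. HSPA5, the main chaperone of the lumen, went the other way, averaging 1461 ± 237 CPM in VE-822 and 949 ± 221 CPM in DMSO (SD, n = 3 each), groups that did not overlap, and rose by 0.62 ± 0.117 (log2, SE; edgeR adjusted p = 0.000135). ERN1, a sensor of misfolded protein, rose by 0.44 ± 0.0578 and EDEM1, which helps clear misfolded proteins, by 0.23 ± 0.0486. Of 11 eIF2 kinase, eIF2B and phosphatase genes 2 were higher and 5 lower, with PPP1R15B, the constitutive partner of the eIF2 phosphatase, at 0.37 ± 0.0395 and EIF2B1 at -0.33 ± 0.0392. Of 9 NRF2 antioxidant genes 5 were higher and 1 lower, led by OSGIN1 at 1.12 ± 0.0661 and TXNRD1 at 0.58 ± 0.0353.

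In 92.1, 3 of 11 further ATF4-linked genes were higher and 2 lower with all libraries, and 4 and 6 without DMSO library 3. Over all genes, 20.3% were higher and 19.6% lower with all libraries, and 26.8% and 29.0% without DMSO library 3. GADD45A had a log2 fold change of 1.90 ± 0.100 with all libraries and 1.98 without DMSO library 3, and GDF15 of 2.35 ± 0.584 and 3.69. SESN2, at -0.49 with that library, was at 1.04 without it. Of the genes on the endoplasmic reticulum chaperone list 7 were lower and 1 higher with all libraries, and 13 and 2 without DMSO library 3, with HSP90B1 at -0.60 ± 0.0651 with all libraries and -0.70 without DMSO library 3. PPP1R15B had -0.63 ± 0.0654 in 92.1, a direction opposite to that in MP38. Of the 16 other synthetases 8 were lower with all libraries, and 13 lower and 1 higher without DMSO library 3.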

How the data were processed

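Libraries of poly(A) RNA, 12 in all, were built with NEBNext Ultra II reagents, per the labels' protocols. Per the submitters' processing notes, the tools were STAR 2.7.11a, featureCounts 2.0.6, cutadapt 4.8, MultiQC 1.7 and FastQC 0.12.1, and the build GRCh38.p13; parameters and strand use are not given in the sources used here. The authors deposited raw counts per gene and FPKM values, 1 table of each per line. All deposited FPKM values equalled the counts scaled by feature length and library total within 0.0005.

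Counts were analysed in R 4.3.3 with edgeR 4.0.16: filterByExpr (minimum count 10, minimum total 15), TMM factors, a quasi-likelihood F test in each line alone, and Benjamini-Hochberg adjustment over all genes tested. The difference between lines came from 1 fit over features in both tables. CPM values carry TMM factors, marker and member shares do not. SE comes from the F statistic. The procedure was tested on simulated data. Alternatives used DESeq2 1.42.0 and limma 3.58.1. Members and lists were chosen with earlier results of these data known. Every member is described. Values in every library are given for ATF4, DDIT3, ASNS, SLC7A11, CHAC1 and TRIB3, for members called in MP38 at a log2 size of at least 1, and for those at least 4 times higher in DMSO library 3 of 92.1. From other lists, genes with the smallest adjusted p were named, up to 4 per list and line. Ratios for DMSO library 3 outside the list, and HSPA5 and EDEM1, were picked after their values were seen. Genes with close copies are uncertain, among them CBS and CBSL, and ASNS, whose pseudogene ASNSP1 took 1123 to 1328 counts in VE-822 and 1021 to 1289 in DMSO in MP38.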

Additional observations from a re-analysis of the deposited data

Results flagged for a closer look

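For 23 members the response to VE-822 differed between the lines by a test of the difference itself, in edgeR's fit of all 12 libraries with Benjamini-Hochberg adjustment over all 24958 genes, where 40.9% of genes passed. The values are log2 differences, the response of 92.1 minus that of MP38, and hold DMSO library 3 of 92.1. Since the list was chosen with the 92.1 contrast known, the count and the values are descriptions. Among transcription factors they were -2.24 for NUPR1, -2.15 for TRIB3, -1.94 for DDIT3, -1.47 for CEBPB and -1.18 for CEBPG. In the feedback group they were -2.14 for CHAC1 and -1.40 for PPP1R15A. Among transporters they were -3.79 for SLC7A11, -1.42 for SLC7A5, -1.20 for SLC7A1, -1.03 for SLC1A5 and -0.54 for SLC38A2.

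Among enzymes the difference was -3.24 for ASNS, -2.51 for CTH, -2.46 for PCK2, -1.79 for MTHFD2, -1.59 for PSAT1 and -1.06 for SHMT2. For the tRNA group it was -1.60 for GARS1, -1.57 for AARS1, -1.45 for CARS1 and -0.70 for XPOT. PHGDH alone among the 23 was positive, at 1.13, with at most 115 counts in any library of 92.1. Without DMSO library 3 these 23 kept their direction, with -0.70 for ASNS and -0.55 for CTH.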

How the results depend on the processing

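In MP38, 22 of 33 members kept their call in all 12 alternatives, 11 changed it in at least 1, and none changed direction between calls. Members called higher in MP38 numbered 17 to 19, and lower 3 to 6, when 1 library was left out; limma on log2(FPKM + 1) gave 13 higher and 2 lower, where CEBPG, DDIT4, SLC3A2, SLC1A5, SLC38A2, MTHFD2 and WARS1 were no longer past the threshold. In 92.1, 0 to 7 were higher and 1 to 23 lower when 1 library was left out. Members lower in 92.1 numbered 12, against 30 with no filter on low counts, 6 in DESeq2 and 1 in limma on FPKM, which called 0 higher (1 at an unadjusted p under 0.05, and 1 in edgeR and DESeq2); the cause was not tested. The counts of 0 higher with 1 library left out came without VE-822 library 1 or 2, in edgeR, with 1 each at an unadjusted p under 0.05. The difference between lines was called for 23 members, against 12 in DESeq2 and 4 in limma, and for 19 to 30 with 1 library left out. Leaving out DMSO library 3 of 92.1 turned the sign of 8 members in 92.1 and of 6 in the difference between lines, of which 4 in each were past the threshold without it. DDIT3, NUPR1, CTH and ALDH1L2 in 92.1, and STC2 and ALDH1L2 in the difference, were not. For those past it, with 1 library left out in turn the log2 fold change ran from -0.47 to 1.36 for ATF3, -1.94 to 1.88 for DDIT4, -1.72 to 0.55 for SLC1A4 and -1.24 to 0.21 for PSPH in 92.1, and the difference between lines from -1.03 to 0.76 for ATF3, -1.75 to 2.04 for DDIT4, -0.16 to 0.24 for VLDLR and -1.67 to 0.56 for SLC1A4; the highest value in each case is the one without that library.

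In MP38 the correlations of same-numbered deviations were -0.17, -0.0762 and -0.248. They gave no sign that replicate numbers pair the samples, but cannot exclude it. The same correlations were 0.0822, 0.0631 and 0.0889 in 92.1. In 92.1 every VE-822 library correlated best with the DMSO library of its own number, a hint from the data and not from the design; in MP38 none did. With the replicate number as a block, 18 members were higher and 4 lower in MP38, 1 higher and 7 lower in 92.1, and 19 differed between lines.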
